A study of Mus musculus with 12 samples.

Results

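Among the places where histone H3 carried methyl groups on lysine 4 in differentiating muscle cells, 1058 regions held a peak of the dimethylated form (H3K4me2) in vehicle-treated cells and no other listed peak. They had no H3K4me2 peak with the LSD1 inhibitor S2101, and no peak of the monomethylated (H3K4me1) or trimethylated (H3K4me3) form in either treatment. The members were chosen by pooling the 6 deposited peak lists, merging peaks that share at least 1 bp into 51372 regions, and keeping the regions with that pattern. They made up 2.06% of all merged regions (95% Wilson interval 1.94 to 2.19%), 5.81% of the 18211 regions with vehicle H3K4me2 and 22.9% of the 4613 regions with H3K4me2 listed for vehicle and not for S2101. Those 4613 were 25.3% of all regions with vehicle H3K4me2, and nothing is read from that share, because the same contrast chose the members. Each member consisted of exactly 1 vehicle H3K4me2 peak, and together they covered 0.806 Mb, or 2.36% of the length of the vehicle H3K4me2 list. The same filter with the treatments reversed, H3K4me2 with S2101 only and no other mark, gave 306 regions. A further 323 regions had H3K4me2 alone in both treatments, and they serve below as the closest set for comparison.

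The cells were C2C12, a line of mouse myoblasts that stop dividing and fuse into myotubes when serum is lowered. In the treated group, differentiation medium with horse serum contained 10 µM S2101 for 48 h, up to day 2. The other cells received vehicle in the same medium for the same time. H3K4me1 and H3K4me2 were measured in experiment 1 and H3K4me3 in experiment 2, with 1 library per mark and treatment, so no difference between treatments has a replicate check and all results below come from 1 cell line. The labels speak of differentiating cells for all 6 libraries used. Their muscle identity was not checked here against marker genes, because gene starts of the build of the files, mm9, were not used here, and regions are therefore given by position (mm9, counted from 1).

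Methylation of lysine 4 is added by methyltransferases of the MLL and SET1 type and removed by demethylases. LSD1 (Kdm1a) removes it from the mono- and dimethylated forms and cannot act on the trimethylated one. H3K4me3 marks active promoters and H3K4me1 is typical of enhancers, whereas H3K4me2 is found at both, often between a promoter's H3K4me3 and the H3K4me1 further out.

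The members were low-scoring, narrow peaks. The score is the peak caller's own value in the authors' lists, and it ranks peaks within a list only. Member scores ran from 100 to 683 with a median of 135 (quartiles 114 and 175), while the whole vehicle H3K4me2 list had a median of 486. Only 2 of the 1058 stood in the higher-scoring 50% of that list, and 518 (49.0%, interval 46.0 to 52.0%) lay in its lowest-scoring 10%. A score of at least 200 was reached by 183 members and one of at least 300 by 36. Widths ran from 334 to 2157 bp with a median of 723 bp, against 1342 bp for all peaks of the list, and 940 members were narrower than 1 kb. At similar scores the widths were closer. Between 100 and 125 the median was 600 bp for members and 640 bp for peaks outside the H3K4me2-only regions. Between 200 and 300 these were 960 and 983 bp, and at 300 or more, without an upper limit, 1303 and 1751 bp. Vehicle-only H3K4me2 peaks with H3K4me1 scored 161 at the median and were 856 bp wide, and those with H3K4me3 209 and 913 bp. Low scores and narrow widths were thus not particular to the members. The score and the width come from the list that the selection used, so these values describe the sets of peaks and test nothing.

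**Figure D1:**
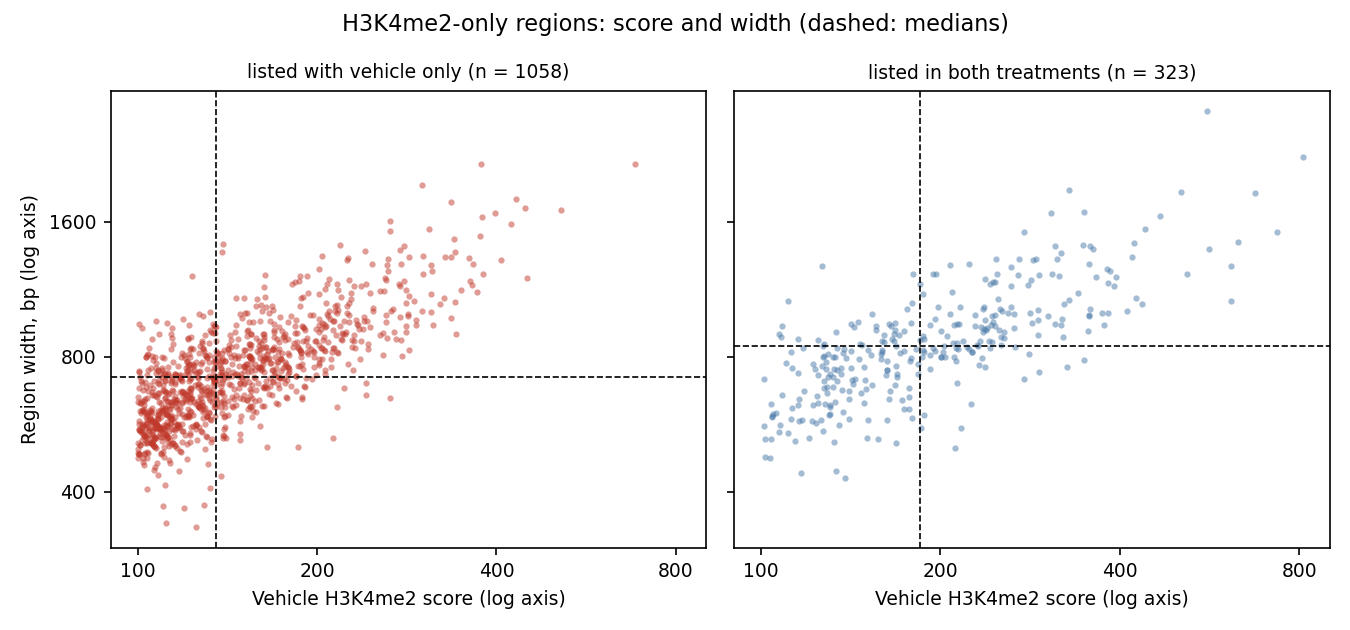
Score (horizontal, log axis) and width in bp (vertical, log axis) of each H3K4me2-only region, 1 point per region, for the 1058 regions listed with vehicle only (left) and the 323 listed in both treatments (right), with dashed lines at the medians. The 1058 regions crowd near a score of 100 and reach 683, while the other set reaches 811.

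The members overlapped in score with the H3K4me2-only regions listed in both treatments but sat lower. A score of at least 200 was reached by 17.3% of the members and by 44.3% of the regions listed in both treatments, whose vehicle peaks had a score of 185 (quartiles 136 and 251) and a width of 838 bp at the median. At the same score the widths were close: between scores of 100 and 125 the members had a median of 600 bp and the regions listed in both treatments one of 596 bp, and between 200 and 300 these were 960 and 928 bp. The S2101 peaks in the regions listed in both treatments were short, with a combined length 0.453 times that of the vehicle peaks at the median (quartiles 0.363 and 0.564), and the S2101 length was the smaller in 320 of 323. The S2101 peaks of the 306 regions listed with S2101 only had a median width of 298.5 bp, and their S2101 score was 121 at the median. The lists as a whole also differed in width. The S2101 H3K4me2 list held 24444 peaks with a median width of 552 bp covering 15.9 Mb, and the vehicle list 21447 peaks with a median width of 1342 bp covering 34.1 Mb. The shortest peak was 115 bp in the S2101 list and 295 bp in the vehicle list. For H3K4me1, measured in the same experiment as H3K4me2, the S2101 list held 20664 peaks and the vehicle list 40432. Their median widths were 384 and 535 bp, and they covered 9.34 and 26.9 Mb. Narrower S2101 peaks were therefore not particular to H3K4me2. For H3K4me3 the lists were close, with 14324 and 13589 peaks and median widths of 1737 and 1668 bp with S2101 and vehicle. The part of such differences between whole lists in the absence of single peaks was not tested.

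Of the 1381 H3K4me2-only regions with a vehicle peak, 76.6% were not listed with S2101 (interval 74.3 to 78.8%), against 25.3% of all regions with vehicle H3K4me2. In the opposite direction, 48.6% of the 629 H3K4me2-only regions with an S2101 peak were not listed with vehicle, against 4.93% of all regions with S2101 H3K4me2. Regions that also held H3K4me1 but no H3K4me3 stood at a vehicle-only share of 70.9% of 3588, regions with H3K4me3 but no H3K4me1 at 10.5% of 7485, and regions with both at 3.93% of 5757. The score moved with these shares. Between scores of 100 and 125, H3K4me2-only regions were vehicle-only in 90.3% of 453 cases (interval 87.2 to 92.7%), regions with H3K4me1 in 88.6% of 734 (86.1 to 90.7%) and regions with H3K4me3 in 63.9% of 147 (55.9 to 71.3%). Between 200 and 300, the shares were 61.8% of 238 (55.5 to 67.7%), 65.8% of 810 (62.5 to 69.0%) and 34.0% of 617 (30.4 to 37.9%). At 300 or more they were 40.9% of 88 (31.2 to 51.4%), 39.4% of 739 (35.9 to 42.9%) and 3.85% of 6287 (3.40 to 4.35%). This last band has no upper limit, and its regions were not at equal scores: the median was 358 for H3K4me2-only regions, 394 with H3K4me1 and 729 with H3K4me3. Between 300 and 400, a limit set after these values were seen, the shares were 45.3% of 64 (33.7 to 57.4%), 47.8% of 383 (42.8 to 52.8%) and 15.5% of 690 (13.0 to 18.4%). In each of the 5 score bands the H3K4me2-only share was thus within 7 percentage points of the share with H3K4me1 and above that with H3K4me3. The vehicle-only H3K4me2-only regions are the members, chosen by this same contrast, so these shares are a description and test nothing.

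**Figure D2:**
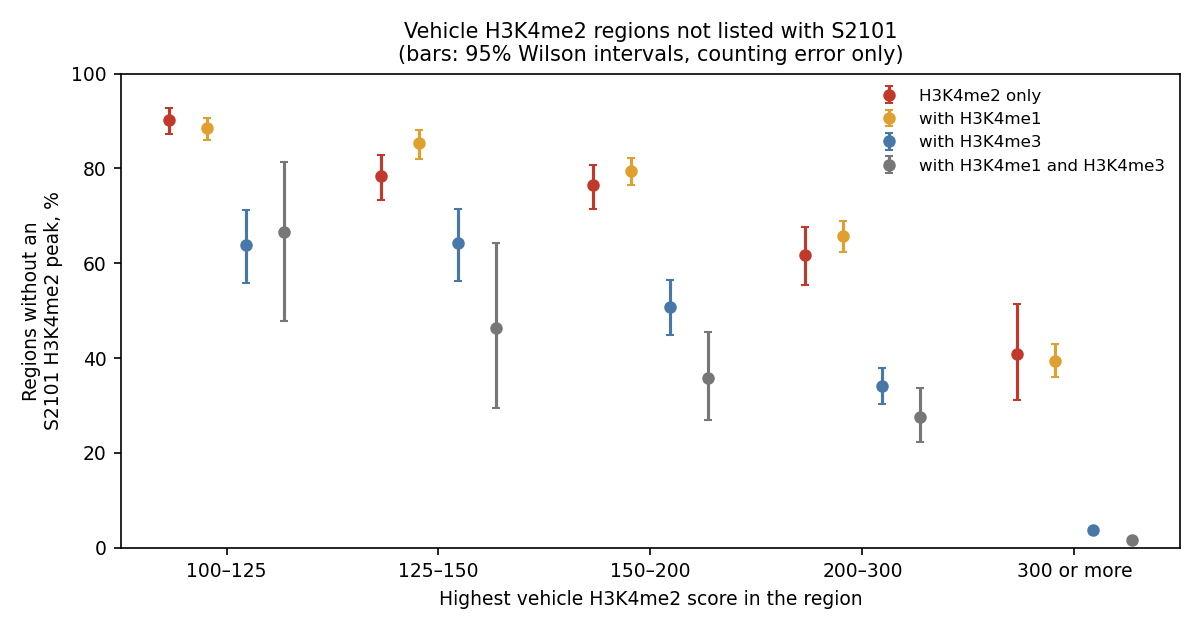
Percentage of vehicle H3K4me2 regions without an S2101 H3K4me2 peak (vertical) in 5 bands of the highest vehicle score in the region (horizontal), for regions with H3K4me2 alone and with H3K4me1, H3K4me3 or both in either treatment; bars are 95% Wilson intervals for counting error. H3K4me2-only regions are at 90.3% in the lowest band and at 40.9% in the highest, close to regions with H3K4me1, whereas regions with H3K4me3 are at 3.85% in the highest band, which has no upper limit and where the median score is 358 for H3K4me2-only regions and 729 for regions with H3K4me3.

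For some members the rule turned on a few bases. An S2101 H3K4me2 peak lay within 100 bp of 5 members, within 500 bp of 43 and within 1 kb of 78 (7.37%, interval 5.95 to 9.11%). The closest was on chromosome 2 (18529635 to 18530363, score 169), where an S2101 peak with a score of 104 began 8 bp beyond the end of the member. On chromosome 7 (17542011 to 17542545, score 112) the gap was 37 bp, on chromosome 18 (68217692 to 68218364, score 155) 48 bp, on chromosome 9 (63864854 to 63866531, score 398) 55 bp and on chromosome 17 (25407780 to 25408332, score 125.38) 100 bp. The member on chromosome 17 was also 1 bp from the H3K4me3 peak of the S2101 list and 64 bp from that of the vehicle list. The 5 members thus stood next to S2101 peaks with scores between 100 and 261. On the other side of the line, the smallest overlap that kept a region out was 34 bp, on chromosome 12 (3791469 to 3792289), between a vehicle peak with a score of 112 and an S2101 peak with a score of 118. The next smallest were 99 bp on chromosome 9 (45743474 to 45744578), 104 bp on chromosome 6 (28432506 to 28433732), 131 bp on chromosome 17 (36138071 to 36138860) and 136 bp on chromosome 5 (118927963 to 118928840). Overlaps this small were few among the 323 regions listed in both treatments, where the median overlap was 360 bp and only 2 were below 100 bp. The rule also turned on the other marks, and more members lay close to those peaks. Within 100 bp, 48 members had a vehicle H3K4me1 peak and 15 an S2101 H3K4me1 peak. An S2101 H3K4me3 peak lay that close to 17 members and a vehicle H3K4me3 peak to 7.

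What lay around the members was not fixed by the rule beyond the absence of an overlap. The nearest peak of any list outside the region itself was 8.27 kb away at the median (quartiles 0.490 and 39.5 kb), and it was 11.9 kb away for the regions listed in both treatments. An H3K4me3 peak of either treatment lay within 1 kb of 113 members (10.7%, interval 8.96 to 12.7%). Another 192 members (18.1%, 15.9 to 20.6%) had an H3K4me1 peak within 1 kb and no H3K4me3 there, and 22 had only a further H3K4me2 peak that close. For 231 members the nearest peak was between 1 and 10 kb away and for 273 between 10 and 50 kb, while 227 (21.5%, 19.1 to 24.0%) had no other peak of any mark within 50 kb. Score and width hardly varied between these settings, with median scores from 131 next to H3K4me3 to 139 for members whose nearest peak was at 10 to 50 kb, and median widths of 673 and 742 bp. Members without any peak within 50 kb had a median score of 138, within that range.

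Both sets of H3K4me2-only regions listed in 1 treatment bordered H3K4me3 more often than the set listed in both treatments, so this nearness is not particular to the members. H3K4me3 within 1 kb was found for 10.7% of the members and for 16 of 323 regions listed in both treatments (4.95%, interval 3.07 to 7.89%), and the intervals did not overlap. Among the 306 regions listed with S2101 only it was found for 41 (13.4%, 10.0 to 17.7%), an interval that overlapped that of the members. Within 10 kb the shares were 28.4% of the members (25.7 to 31.1%), 34.0% of the regions listed with S2101 only (28.9 to 39.5%) and 19.5% of those listed in both treatments (15.6 to 24.2%). On autosomes alone the shares within 1 kb were 9.93% of the members (8.24 to 11.9%) and 5.0% of the regions listed in both treatments (3.10 to 7.97%). Among regions with a score of at least 200 the shares were 10.9% of 183 members (7.19 to 16.3%) and 2 of 143 (1.40%, 0.384 to 4.96%). Within 50 kb the shares were 58.3% of the members (55.3 to 61.3%) and 61.9% of the regions listed in both treatments (56.5 to 67.0%), with overlapping intervals. The regions listed with S2101 only were higher at that distance, at 69.3% (63.9 to 74.2%), an interval that did not overlap that of the members. H3K4me1 within 1 kb showed no such gap, at 20.5% of the members (18.2 to 23.0%) and 19.5% of the regions listed in both treatments (15.6 to 24.2%). These comparisons are between sets of regions of the same libraries, and their intervals cover counting error only.

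**Figure D3:**
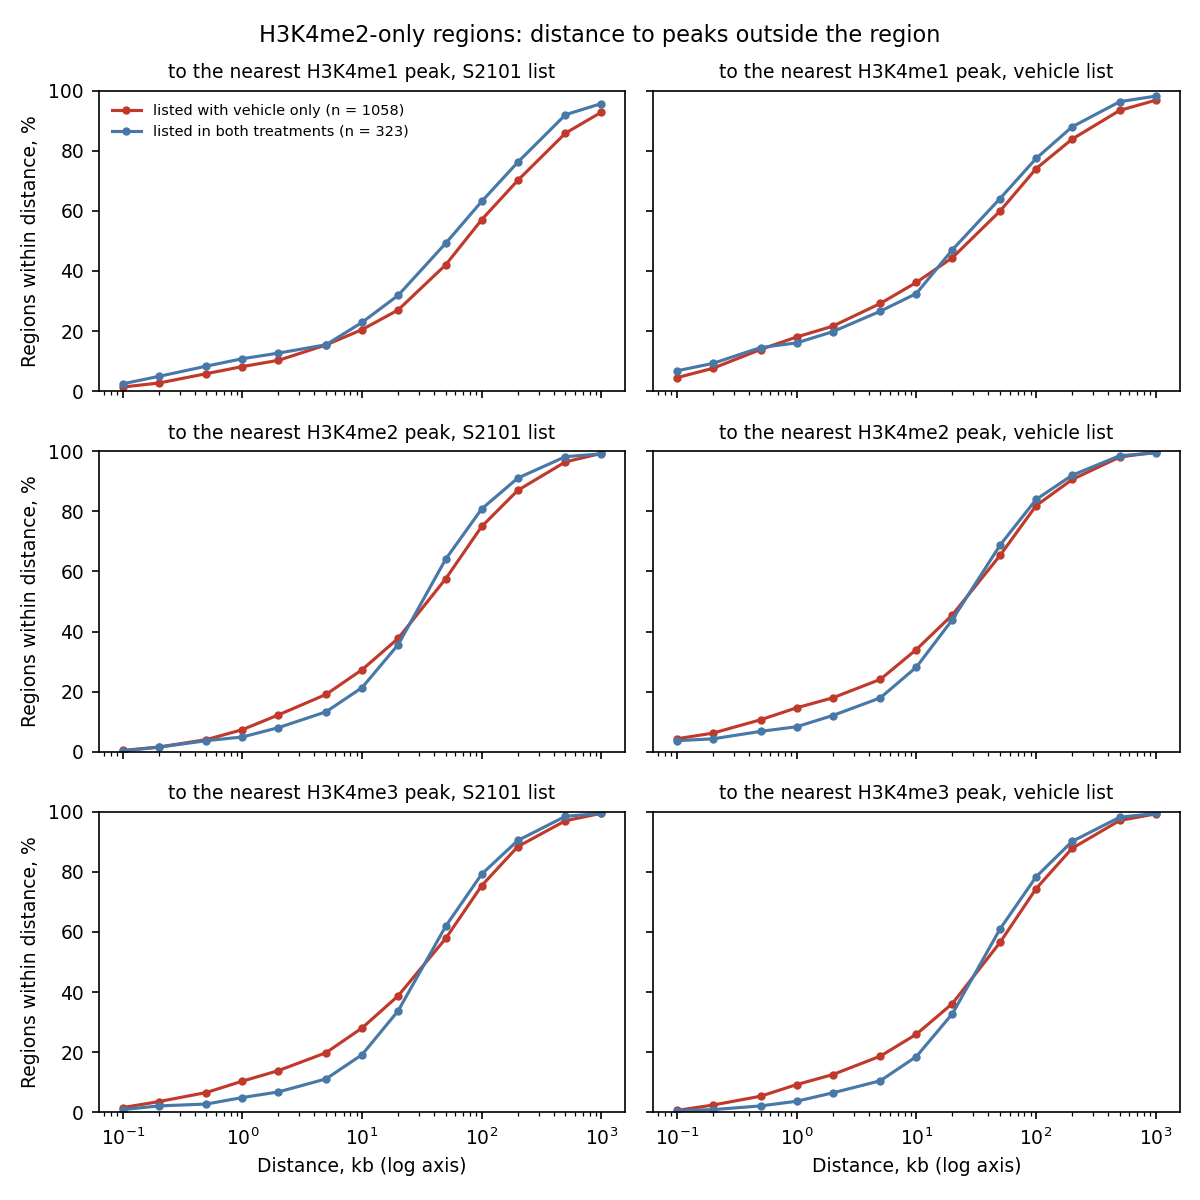
Cumulative percentage of H3K4me2-only regions (vertical) with a peak of the named list outside the region within a given distance in kb (horizontal, log axis), for the 1058 regions listed with vehicle only and the 323 listed in both treatments, with 1 panel per peak list. Within 10 kb the vehicle-only regions lie higher for H3K4me3 (28.1% against 19.2% with S2101), and the curves cross before 50 kb.

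The H3K4me3 regions next to members had shares close to those of all H3K4me3 regions. The nearest H3K4me3 region was taken for each of the 113 members, so a region nearest to more than 1 member was counted for each. In 105 cases (92.9%, interval 86.6 to 96.4%) it had H3K4me3 in both treatments and in 8 with S2101 only, compared with 91.3% and 7.69% of all 13934 H3K4me3 regions. It held an S2101 H3K4me2 peak in 94 of the 113 cases (83.2%, 75.2 to 89.0%) and a vehicle one in 107 (94.7%, 88.9 to 97.5%), with 12344 (88.6%) and 13242 of all 13934 H3K4me3 regions. The share with S2101 H3K4me2 over all H3K4me3 regions lay inside the interval of the members' neighbours, and so did that with vehicle H3K4me2. A second vehicle H3K4me2 peak lay within 100 bp of 46 members and within 1 kb of 155 (14.7%, 12.6 to 16.9%), compared with 27 of the 323 regions listed in both treatments (8.36%, 5.81 to 11.9%). Where that neighbouring region held H3K4me3, it was listed with S2101 for H3K4me2 in 99 of 110 cases (interval 83.0 to 94.3%), and where it did not, in 11 of 45 (24.4%, 14.2 to 38.7%). Over all regions with vehicle H3K4me2, 7.64% of those with H3K4me3 and 72.5% of those without it were not listed with S2101. The neighbours of the members were thus close to such regions in general.

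For the 217 members with an H3K4me1 peak within 1 kb, the nearest H3K4me1 region was listed with S2101 only in 16.6% (interval 12.2 to 22.1%), in both treatments in 20.3% (15.5 to 26.1%) and with vehicle only in 63.1% (56.5 to 69.3%). For the 63 regions listed in both treatments these were 17.5% (10.0 to 28.6%), 33.3% (22.9 to 45.6%) and 49.2% (37.3 to 61.2%). The vehicle-only shares of members and of regions listed in both treatments had overlapping intervals. Over all 41557 H3K4me1 regions they were 12.7%, 29.2% and 58.1%, and the vehicle-only share of the members' H3K4me1 neighbours was not distinguishable from the last of these by its interval.

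Further out, the nearest vehicle H3K4me2 region with H3K4me3 was not listed with S2101 for 11.5% of the 286 members that had one within 10 kb (interval 8.33 to 15.8%), and for 9.67% of 610 within 50 kb (7.57 to 12.3%). Over all regions of that kind it was 7.64%, just outside the first interval and inside the second. Within 10 kb it was 12.4% of 97 for H3K4me2-only regions listed with S2101 only (7.22 to 20.4%). For those listed in both treatments it was 6.56% of 61 (2.58 to 15.7%). The 12.4% was close to the members' 11.5%, so the value is not particular to them. The 6.56% was lower, and its interval was too wide to tell it apart from either. For nearest H3K4me2 regions without H3K4me3 the value within 50 kb was 75.1% of 329 (70.1 to 79.4%), with 72.5% over all such regions. The neighbours with H3K4me3 within 10 kb had a median score of 804, against 759 over all regions of that kind.

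The highest-scoring members show the range of these surroundings. The leading one lay on chromosome 18 (69574036 to 69576192, 2157 bp) and was also the widest. Its score of 683 ranked it 7877 of 21447 in the vehicle H3K4me2 list. The nearest S2101 H3K4me2 peak was 53.3 kb away, the nearest H3K4me3 peak 65.9 kb with S2101 and 64.3 kb with vehicle, and a vehicle H3K4me1 peak stood 3996 bp off. Only 2 of the 323 regions listed in both treatments scored higher, on chromosome 18 (55060591 to 55062821, vehicle score 811) and chromosome 11 (80415597 to 80417115, vehicle score 734).

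Others of the leading 10 had few or no peaks near them. The member on chromosome 19 (44830019 to 44831714, score 514) had no S2101 peak of any mark within 50 kb. Its nearest peak in any list was a vehicle H3K4me2 peak 34.9 kb away, itself a member, and a vehicle H3K4me1 peak lay at 46.1 kb. On chromosome 5 (28492028 to 28493607, score 423) no peak of any list lay within 50 kb, and the nearest was a vehicle H3K4me1 peak at 82.5 kb. The member on chromosome 3 (26051352 to 26052994, score 378) was the most remote of the 10, with the nearest peak of any list 998 kb away. These were wide peaks, of 1696, 1580 and 1643 bp, without H3K4me3 of either treatment within 50 kb.

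The next group lay beside marked chromatin. On chromosome 2 (13477880 to 13479677, 1798 bp, score 431) another vehicle H3K4me2 peak began 3 bp past the member and reached to 13480961, and the nearest S2101 H3K4me2 peak was 11.2 kb away. On chromosome 18 (68144189 to 68145385, score 449) a vehicle H3K4me2 peak followed after 17 bp and a vehicle H3K4me1 peak after 455 bp, with the nearest S2101 H3K4me1 peak at 42.7 kb. In both cases the adjoining vehicle H3K4me2 peak overlapped a vehicle H3K4me1 peak, which kept it out of the members. On chromosome 9 (63864854 to 63866531, score 398) H3K4me3 peaks of both treatments began within 1 kb, at 776 bp with S2101 and 696 bp with vehicle. The member on chromosome 1 (53830199 to 53831917, score 447) had an S2101 H3K4me1 peak 528 bp away and H3K4me3 at 7.05 kb with S2101 and 7.27 kb with vehicle, while the nearest S2101 H3K4me2 peak was 419 kb away. The vehicle H3K4me2 peak over that H3K4me3 (53838680 to 53840675, score 473) was thus not listed with S2101 either. The remaining members of the leading 10 were on chromosome 7 (30793551 to 30794865, score 408), 158 bp from vehicle H3K4me1, and on chromosome 8 (71243999 to 71245223, score 380), 5996 bp from vehicle H3K4me1 and 12.3 kb from H3K4me3 of both treatments.

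**Figure D4:**
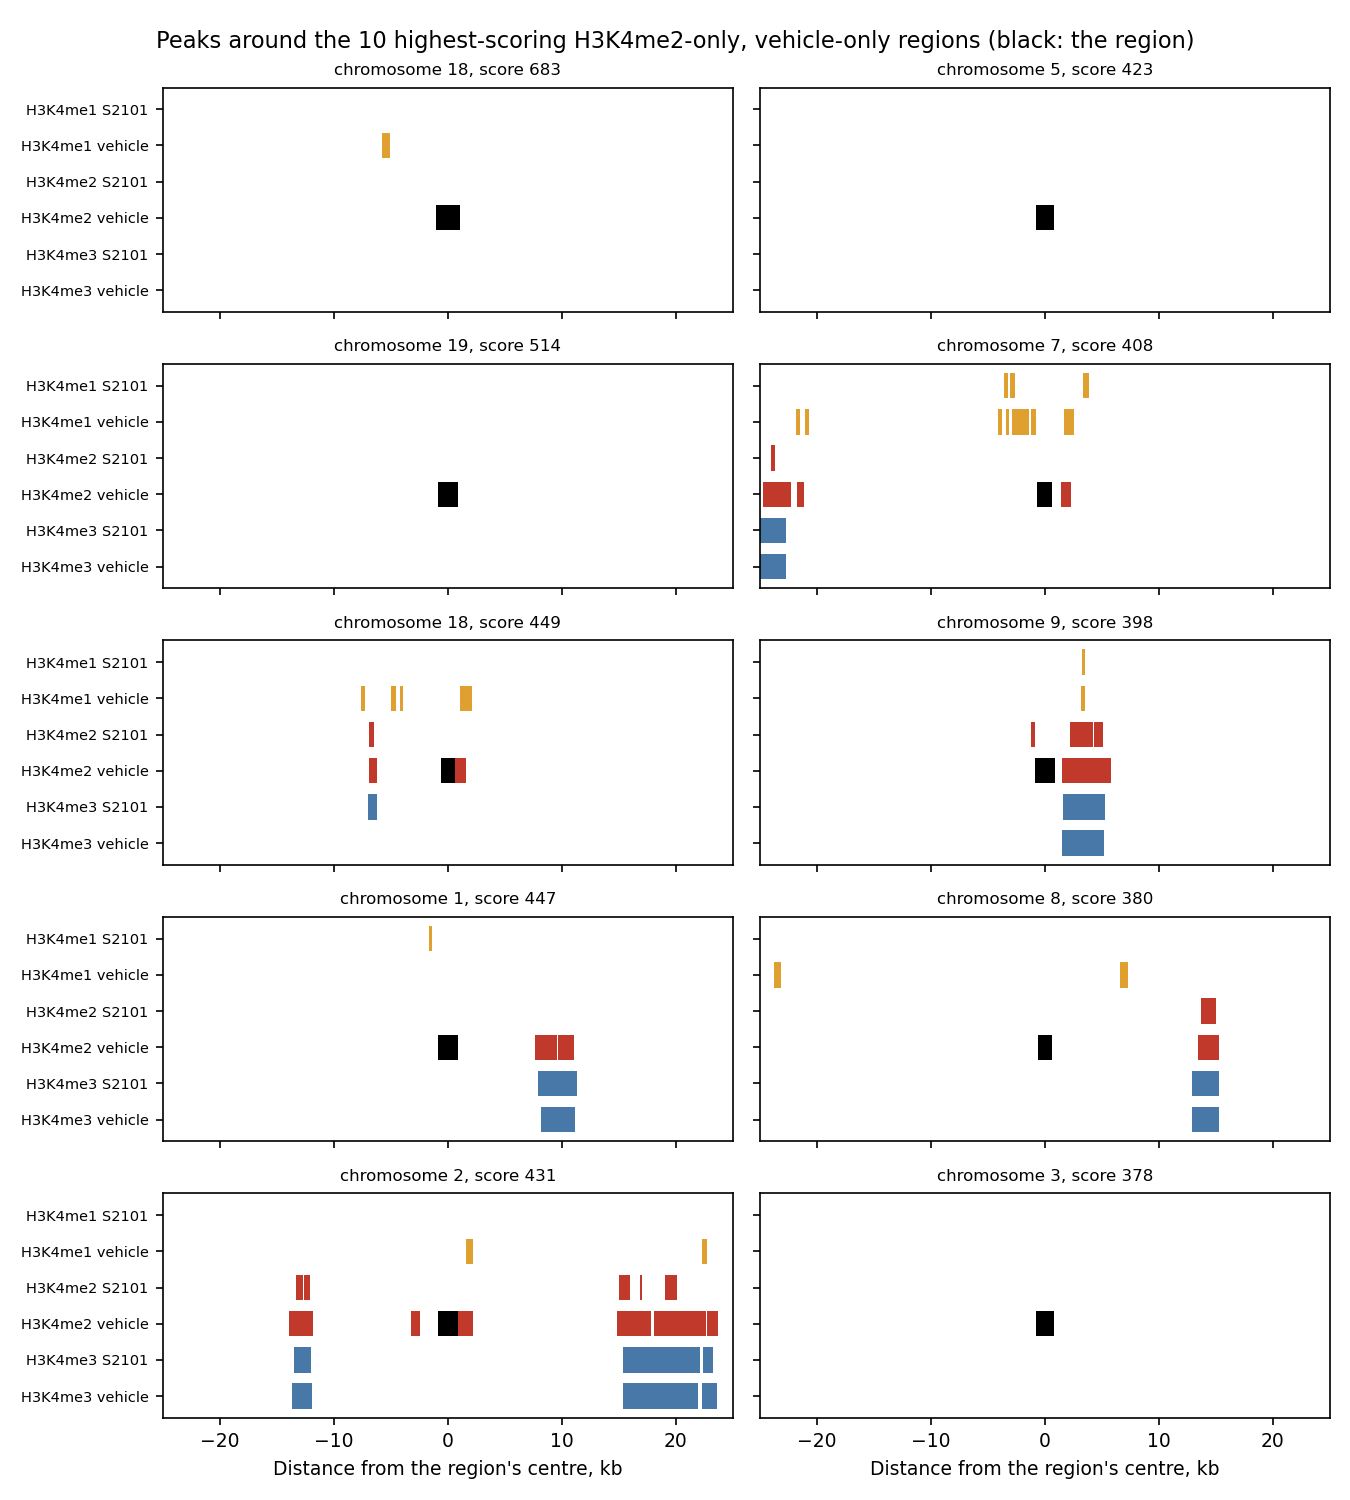
Peaks of the 6 lists (rows, S2101 above vehicle for each mark) within 25 kb of the centre of the 10 highest-scoring members (panels, distance in kb on the horizontal axis; bars are peaks and black bars the member). The panels for chromosomes 19, 5 and 3 hold no other peak, while the member on chromosome 9 stands beside H3K4me3 of both treatments.

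Of the 5 widest members, 3 stood beside H3K4me3. On chromosome 10 (106924608 to 106926755, 2148 bp, score 377) H3K4me3 ended 134 bp before the member with S2101 and 430 bp before it with vehicle. On chromosome 19 (47304997 to 47306764, 1768 bp, score 336) these gaps were 223 and 937 bp, and a vehicle H3K4me2 peak ended 279 bp before the member. On chromosome 1 (148353439 to 148355366, 1928 bp, score 299) the member stood 2.82 kb from the S2101 and 3.44 kb from the vehicle H3K4me3 peak, which span 148339896 to 148350614 and 148339931 to 148349996. In all 3 the H3K4me3 peak was listed in both treatments, while the member was vehicle-only by the rule. On chromosomes 10 and 1 the nearest S2101 H3K4me2 peak lay inside the H3K4me3 peak. On chromosome 19 the vehicle H3K4me2 peak before the member (47303403 to 47304717) lay inside the S2101 H3K4me3 peak (47303096 to 47304773). It too was not listed with S2101, as the nearest S2101 H3K4me2 peak was 50.9 kb from the member.

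Most members were single, but a few lay in runs. With gaps of up to 50 kb, 922 members had no other member beside them, 58 runs held 2 members, 4 held 3 and 2 held 4. The shorter of the 2 runs of 4 covered 12.6 kb on chromosome 4 (139379421 to 139392014). Its 4 members, with scores of 104 to 261, lay on both sides of a 3319 bp region (139387023 to 139390341) that held H3K4me3 in both treatments and H3K4me2 in both. The same layout was seen on chromosome 1, where members at 148338281 to 148339187, 148353439 to 148355366 and 148361580 to 148362711 stood on both sides of the wide H3K4me3 domain, which held H3K4me2 peaks in both treatments. The other run of 4 stretched over 96.1 kb on chromosome 9 (107782359 to 107878495) among 11 regions, 3 of them with H3K4me2 in both treatments. A run of 3 on chromosome 9 (53619093 to 53677917, scores 108 to 245) contained no region other than the members. On chromosome X a run of 3 (137039952 to 137078563, scores 104 to 122) included a region with H3K4me3 in both treatments (137074464 to 137077945) whose vehicle H3K4me2, with a score of 872, was also not listed with S2101.

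Members were unevenly spread over the chromosomes. Of the 1058, 1017 were on autosomes, 37 on chromosome X and 4 on unplaced contigs. They made up 5.81 ± 1.69% of the vehicle H3K4me2 regions of an autosome (mean and SD over 19 autosomes, which are not replicates). Chromosome 15 had the lowest share, 20 of 912 (2.19%, interval 1.42 to 3.36%), and chromosome 13 the highest, 66 of 720 (9.17%, 7.27 to 11.5%). Chromosomes 9 and 7 followed with 8.50% and 7.62%, and chromosomes 11 and 17 were low with 3.68% and 3.85%. H3K4me1 moved with this order: the share of vehicle H3K4me2 regions that held an H3K4me1 peak of either treatment ran over the autosomes between 30.1% on chromosome 7 and 80.0% on chromosome 15. Across the 19 autosomes the member share and this H3K4me1 share had a Pearson r of −0.90 and a Spearman rho of −0.89, given as a description, since the rule keeps only regions without H3K4me1 and the chromosomes share their libraries. The share of vehicle-only among H3K4me2-only regions, in which all regions lack H3K4me1, was 75.3 ± 6.60% over the autosomes, lowest on chromosome 15 (20 of 36) and highest on chromosome 9 (79 of 95, 83.2%). Its Pearson r with the H3K4me1 share was −0.42 and its Spearman rho −0.11.

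**Figure D5:**
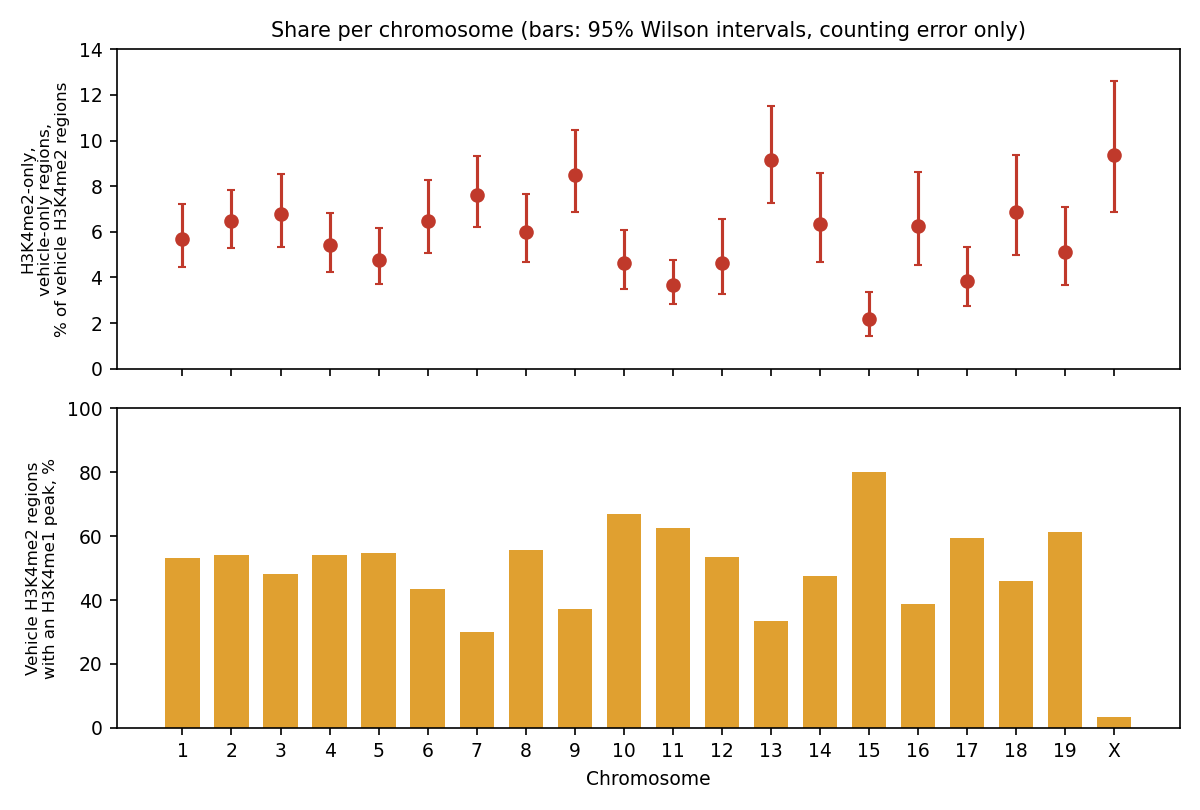
For each chromosome (horizontal), the percentage of vehicle H3K4me2 regions that are H3K4me2-only and listed with vehicle only (upper panel, points with 95% Wilson intervals for counting error) and the percentage that hold an H3K4me1 peak of either treatment (lower panel, bars). Chromosome 15 has the lowest member share (2.19%) and the highest H3K4me1 share among chromosomes (80.0%), and chromosome X has the lowest (3.28%).

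Chromosome X stood apart in the vehicle-only share of all its H3K4me2 regions, but not in its member share. Members were 9.34% of its vehicle H3K4me2 regions (6.85 to 12.6%), close to the 9.17% of chromosome 13 (7.27 to 11.5%). It had 37 members and only 3 H3K4me2-only regions listed in both treatments, so 92.5% of its 40 H3K4me2-only vehicle regions were not listed with S2101 (interval 80.1 to 97.4%), compared with 76.1% of 1337 on the autosomes (73.7 to 78.3%). The highest single autosome was chromosome 9 at 83.2% (74.4 to 89.4%), an interval that overlapped that of X. The difference from the pooled autosomes was not limited to the members. Of all vehicle H3K4me2 regions on X, 58.8% of 396 were not listed with S2101 (53.9 to 63.6%), while the autosomes ranged from 21.3 to 29.2%. For regions with H3K4me3 and no H3K4me1 the shares were 55.4% of 343 on X (50.1 to 60.6%) and 8.32% of 7129 on autosomes (7.70 to 8.98%). The scores moved with this in part: the X regions with H3K4me3 had a median vehicle score of 253 against 665 on autosomes, whereas the H3K4me2-only regions had 139 on X and 144 on autosomes. The part of the score in the X values was not tested. For members on X the median score was 139 and the median width 738 bp, close to the 135 and 722 bp of autosomal members. H3K4me3 was within 1 kb of 10 of the 37 X members (27.0%, 15.4 to 43.0%) and of 101 of the 1017 autosomal ones (9.93%, 8.24 to 11.9%), and H3K4me1 was within 1 kb of 1 and 215 of them. The H3K4me1 lists held only 21 peaks on X with S2101 and 77 with vehicle.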

How the data were processed

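ChIP-seq peak lists of 6 libraries were analysed, and the 4 inputs and 2 H3 samples of the 12 samples were not analysed here. The deposited score is the authors' value per peak. MACS run within Galaxy made the peak lists, per the file headers, and 1 list was deposited per library. Per the submitters' processing notes, Bowtie2, deepTools and build mm9 were used. Tool versions, settings and read totals were not given in the sources used here. Depth is therefore unknown, and a shallower or less enriched library can yield fewer and narrower peaks. Peaks sharing at least 1 bp were merged. Shares carry 95% Wilson intervals for counting error only, and neighbouring regions are not independent. With 1 library per mark and treatment no test was made. Distances count the bases between a region and the nearest peak of another region. Regions named are the 10 highest-scoring and 5 widest members, the 5 members nearest to an S2101 H3K4me2 peak, the 5 smallest overlaps left out, and, chosen after their values were seen, the runs of members and the 2 higher-scoring regions listed in both treatments. The members, lists and rules were chosen with earlier results of these data known. Merging, classes and the distances of members to vehicle H3K4me3 peaks were checked with bedtools 2.31.1 on simulated and deposited lists and matched. The calculation that leaves out peaks of the region itself, which gave the distances above, was not checked in this way. Alternatives changed the score threshold, list lengths and overlap rule. No gene names, sequences or motifs are given, because the gene and promoter tables at hand are of GRCm38. The software was Python 3.11.15 with matplotlib 3.10.9, scipy 1.17.1, pandas 2.3.3 and numpy 2.4.6.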

Additional observations from a re-analysis of the deposited data

How the results depend on the processing

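The number of members depended on the score threshold and the list lengths. It was 183 when vehicle H3K4me2 peaks needed a score of at least 200, and 1687 with the 2 lists of each mark cut to equal numbers of peaks. That set had to hold all 1058 members, because the vehicle H3K4me2 list was the shorter of its pair and stayed whole. The vehicle H3K4me1 list, which the rule uses to leave regions out, was cut from 40432 to 20664 peaks in this setting. With a score of at least 200 in all 6 lists the number was 757, but only 183 of these were among the 1058. Low-scoring peaks of the S2101 H3K4me2 list and of the other marks had also dropped out. A 1 kb rule left 746 and joining over gaps of 500 bp left 796. The members' share of vehicle-only H3K4me2 regions was 20.4%, 31.4% and 17.4% with the threshold in all lists, equal lists and the 1 kb rule. The median width was 995 bp for members with a score of at least 200, and 57.6% rather than 27.3% of members had an S2101 H3K4me2 peak when the limit was 50 kb in place of 10 kb. H3K4me3 lay within 1 kb of 1.40% of the regions listed in both treatments at scores of at least 200. In settings added after the data were seen, the vehicle-only share of H3K4me2-only regions was 79.5% with equal lists. That of regions with H3K4me1 was 78.3% with the threshold in all lists, 76.8% with equal lists and 68.5% with the 1 kb rule, so at the threshold it was above the 75.9% of H3K4me2-only regions. That of regions with H3K4me3 was 17.0% and 11.5% with the threshold and equal lists. On X, the vehicle-only share was 78.1% and 67.2%, with autosomes at no more than 34.4% and 34.6%. The planned comparisons with gene starts, base composition and motifs were not run, because annotation and sequence of build mm9 were not used here. No paired analysis was possible because each mark and treatment has 1 library.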
